A study of Mus musculus with 9 samples.

Results

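Type I interferon response genes encode antiviral and antigen-presenting proteins that cells switch on when interferon alpha or beta binds its receptor. A fixed list of 40 such genes, out of 55573 gene identifiers in the count tables, was followed across mouse splenic T cells that were naive, activated at 37 °C or activated at 39 °C. All 40 were matched by symbol to 1 identifier each and all passed the filter on low counts, among 13328 genes tested. Mx1 and Mx2 passed it only through the naive group, and the other 38 also passed in the activated libraries alone.

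There were 9 RNA sequencing libraries in 3 groups of 3, all from B6 mice without a genetic change named in the labels. Naive cells were not activated. Cells of the other groups spent 3 h in wells carrying anti-CD3 and anti-CD28, antibodies that stimulate through the T cell receptor complex and the costimulatory molecule CD28. The incubator was set to 37 °C or to 39 °C, as in fever. The labels name splenic CD4+ T cells as the source of the RNA, describe the cells placed in the wells as spleen cells, and do not say whether naive cells also spent time in culture. Nor do they tie each library to a mouse or a culture of its own, so the p-values reflect the spread among these samples alone, and that spread may be technical.

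Interferon alpha and beta bind the receptor formed by IFNAR1 and IFNAR2, whose kinases JAK1 and TYK2 pass the signal on to transcription factors, among them STAT2 and its partner IRF9. These act at the interferon-stimulated response element, whose core repeats GAAA. Resting lymphocytes are known to keep a low level of these transcripts through tonic interferon signals, and some of the genes, among them those for GTPases of the GBP and IRG families, also respond strongly to interferon gamma.

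The element was looked for in promoter windows of 300 bases, from 250 before to 50 after each start site, taken from RefSeq on GRCm38. A window was found for 30 of the 40 members. A motif of GAAA, any 2 bases and GAAA again (read on the other strand as TTTC, 2 bases and TTTC) stood in the windows of 16 of these 30 genes (53.3%), against 1079 of 27025 genes in the whole table (3.99%) and 39 of 73 further interferon-stimulated genes that are not members (53.4%). A longer form in which CT follows directly, every match of which also holds the shorter motif, was found in 10 of the 30 members (33.3%) and in 0.303% of all genes. A match describes letters only and does not show that a factor binds there.

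The following 80-base stretches before the start site are shown, 5′ to 3′ on the gene's strand and with matches in capitals, because they set genes that fell after activation beside Igtp, which was not called. They lie at chr19:34640759-34640838 (plus strand, Ifit1), chr19:34583354-34583433 (plus, Ifit3), chr19:34607750-34607829 (plus, Ifit3b), chr4:156200847-156200926 (minus, Isg15), chr5:120907526-120907605 (minus, Oas1a), chr8:71537556-71537635 (minus, Bst2) and chr11:58199476-58199555 (plus, Igtp).
Ifit1: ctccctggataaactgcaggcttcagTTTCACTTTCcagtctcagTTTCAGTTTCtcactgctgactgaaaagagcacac
Ifit3: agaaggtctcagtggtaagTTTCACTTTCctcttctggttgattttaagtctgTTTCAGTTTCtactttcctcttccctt
Ifit3b: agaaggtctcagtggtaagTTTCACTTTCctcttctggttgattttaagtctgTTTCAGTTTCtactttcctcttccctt
Isg15: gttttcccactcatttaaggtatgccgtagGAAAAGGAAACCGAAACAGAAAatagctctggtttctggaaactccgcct
Oas1a: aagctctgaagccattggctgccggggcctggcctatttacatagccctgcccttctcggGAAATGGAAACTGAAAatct
Bst2: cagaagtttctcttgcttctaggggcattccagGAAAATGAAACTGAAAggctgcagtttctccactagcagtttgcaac
Igtp: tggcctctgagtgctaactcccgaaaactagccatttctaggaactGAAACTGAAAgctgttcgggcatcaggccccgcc
The stretches of Ifit3 and Ifit3b were identical at 80 of 80 bases. In Isg15 the matches overlap and form 1 run, and Ifit1 and Ifit3 each hold 2 separate matches.

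Total counts ran from 12647692 to 17605549 per library. Libraries of the naive group differed more from each other than those of the activated groups, with a chi-square per degree of freedom of 10.1 to 42.0 between naive pairs and 2.09 to 9.67 between activated pairs. Markers listed for CD4+ T cells (Cd4, Cd3d, Cd3e, Cd3g, Trac, Cd5 and Lck) were abundant in all libraries (7 markers, summed to 3863 to 4787 CPM in naive, 4506 to 4733 at 37 °C and 4696 to 5039 at 39 °C, where CPM is the count scaled to a common normalised library size). Against naive 3 of the 7 were lower and 1 higher at 37 °C, beside 31.8% and 30.9% of all genes tested. At 39 °C 2 were lower and 1 higher, beside 29.8% and 29.2%. Transcripts of other spleen cells were present as well. The sum of 16 B cell markers was 1089 to 1367 CPM in naive, 448 to 475 at 37 °C and 442 to 476 at 39 °C, and none of the 16 was at 0 in any group. At 37 °C 14 of them were lower than in naive and 1 was higher, against 31.8% and 30.9% of all genes tested.

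Most further lists of other cells were also lower after activation, while markers in the myeloid and plasmacytoid dendritic cell lists went both ways. At 37 °C the 5 tested of 6 NK cell markers and both CD8 T cell markers were lower than in naive. Among all genes tested 31.8% were lower and 30.9% higher in this comparison, the shares beside which each count at 37 °C in this paragraph stands. The NK sum was 42.3 to 57.6 CPM in naive, 24.4 to 26.2 at 37 °C and 20.7 to 22.9 at 39 °C, and the CD8 sum 25.8 to 36.1, 13.5 to 15.1 and 12.6 to 14.6 CPM. Of 6 tested myeloid markers (12 listed) 4 were lower and 1 higher, with sums of 52.4 to 76.5, 44.9 to 50.9 and 48.0 to 56.7 CPM. Erythroid and platelet markers fell in 5 of 5 tested (8 listed), from 135 to 225 CPM in naive to at most 4.18 CPM in an activated library, and Pf4 was at 0 everywhere. Genes this low after activation can pass the filter through the naive group alone, so this count of lower genes carries little weight. The same limit holds for any NK cell marker with few counts after activation. The 5 neutrophil markers summed to 1.35 to 3.30 CPM in naive and to at most 0.125 CPM after activation. Between 39 °C and 37 °C edgeR called 0 markers in any of these lists, with 2 B cell markers higher and 4 lower and 1 NK cell marker (Eomes) and Bst2 lower at an unadjusted p under 0.05, and DESeq2 called 1 B cell marker lower. Over 17 alternative settings 0 to 3 B cell markers and 0 to 1 plasmacytoid dendritic cell marker were called lower. Plasmacytoid dendritic cells, which are specialised interferon producers, have Siglech as a defining marker, and it stood at 0.0687, 0.0701 and 0.113 CPM in naive and at 0 in all activated libraries. Of their list of 10, which includes the member Bst2, 7 were tested, and 4 were lower (Ccr9, Spib, Bst2 and Ly6d) and 2 higher (Pacsin1 and Runx2) at 37 °C. The list summed to 177 to 198, 180 to 190 and 170 to 174 CPM. In bulk RNA fewer cells of a type and less RNA per cell cannot be told apart, and the part these markers have in the results that follow was not tested.

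The comparison of activation at 37 °C with naive cells spans 3 h of stimulation together with any difference in culture time and cell mixture. The design cannot tell these apart. Most interferon response genes fell, 15 of them by at least 4-fold. Of the 40 members 37 were lower and 0 were higher by edgeR at an adjusted p under 0.05, against 31.8% lower and 30.9% higher among all genes tested. No member was higher at an unadjusted p under 0.05 either, and DESeq2 also called 37 lower and 0 higher. A fall of at least 2-fold was called for 29 members, against 10.5% of all genes. The median log2 fold change of the 40 was -1.44 (range -4.28 to 0.16), and that of all genes tested -0.0025. Single libraries separated in the same way, since all 3 libraries at 37 °C lay below all naive libraries for 37 members, against 32.7% of all genes. Summed over the members, the level was 2868, 2733 and 2810 CPM in naive libraries 1 to 3, 1407, 1372 and 1388 CPM at 37 °C, and 1411, 1387 and 1387 CPM at 39 °C.

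At 39 °C against the same naive libraries, 37 members were lower and 1, Gbp2, was higher, against 29.8% and 29.2% of all genes. The median was -1.68 (range -4.85 to 0.35), beside -0.0027 over all genes. All 3 libraries lay below all naive libraries for 36 members, against 30.5% of all genes. The activation contrasts share their naive libraries and are not independent of each other. With upper-quartile scaling the median over all genes shifted to -0.14 at 37 °C and -0.13 at 39 °C, the split of all calls went from 3887 higher and 3968 lower to 3092 and 4914 at 39 °C, and from 4114 and 4240 to 3340 and 5139 at 37 °C. Relative to that shift the members' medians were -1.43 and -1.68, the values without it.

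**Figure D1:**
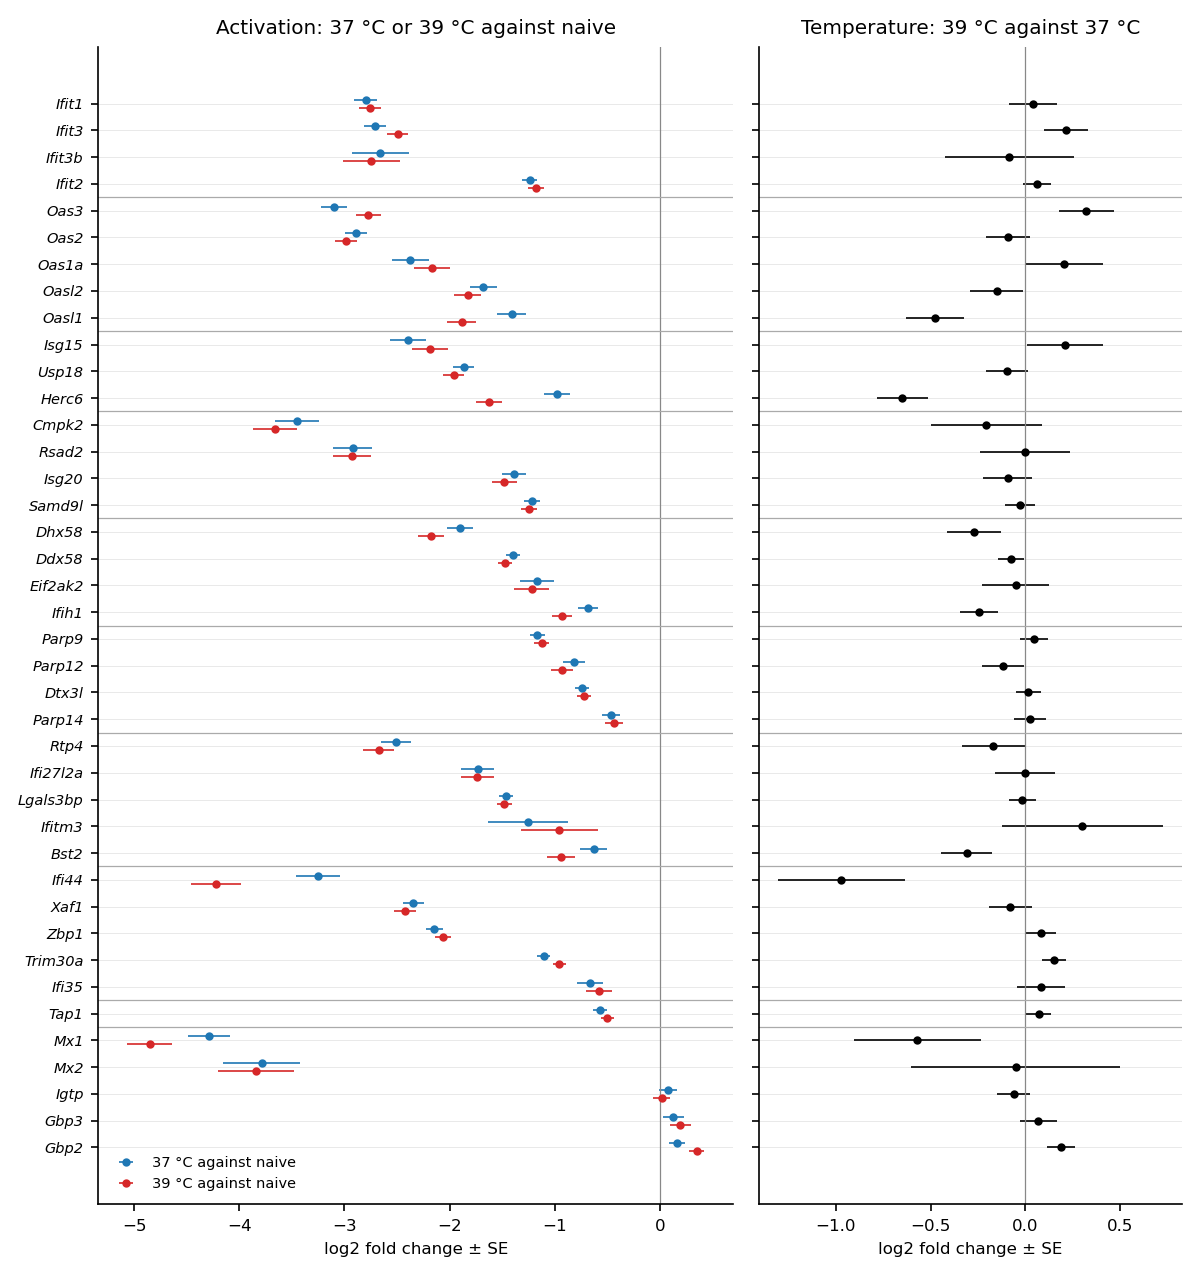
Log2 fold change of each of the 40 members against naive at 37 °C (blue) and at 39 °C (red) on the left, and at 39 °C against 37 °C on the right, with bars for the standard error (n = 3 libraries per group) and lines between role groups. The values at 37 °C run from -4.28 for Mx1 to 0.16 for Gbp2, and Gbp2, Gbp3 and Igtp are the only members above 0 at 37 °C, though Igtp was below 0 in 2 and Gbp3 in 1 of 17 alternatives.

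IFIT proteins bind foreign RNA and block its translation. All 4 members fell at 37 °C, with a median log2 fold change of -2.68. This count, and each count of falling members in the role groups below, stands beside 31.8% of all genes called lower. Separations from naive stand beside 32.7% of all genes at 37 °C and 30.5% at 39 °C with all libraries below naive. Ifit2 (ENSMUSG00000045932, chromosome 19, 34550694 to 34576419, GRCm38) stood at 91.9, 92.3 and 82.9 CPM in naive, 35.1, 39.4 and 38.7 at 37 °C, and 38.4, 39.8 and 39.7 at 39 °C. Ifit3 stood at 52.9, 45.9 and 49.1 CPM in naive, 8.07, 6.96 and 7.61 at 37 °C, and 9.59, 8.58 and 8.01 at 39 °C. For both, all activated libraries were below all naive ones and the temperatures overlapped. At 37 °C against naive the log2 fold change was -1.24 ± 0.073 for Ifit2 (adjusted p = 3.37e-08) and -2.71 ± 0.10 for Ifit3 (adjusted p = 7.83e-10), where ± is the standard error of the edgeR fit here and below. Ifit1 went from 31.4 to 36.7 CPM in naive to 4.57 to 5.36 CPM at 37 °C (-2.80 ± 0.11), and Ifit3b fell by -2.66 ± 0.27. Ifit2 is the member of the family that fell least and the one whose promoter windows do not hold the motif. Over all members with a window the median was alike with the motif (-1.33) and without it (-1.31). Ifit3 shares 51.2% of its 50-base stretches of transcript with Ifit3b, so how reads were divided between this pair is uncertain.

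OAS enzymes make the second messenger that activates RNase L in response to double-stranded RNA, and the OAS-like proteins act in antiviral signalling without that activity or beside it. All 5 fell at 37 °C (median -2.37). Oas2 stood at 67.5, 80.6 and 77.7 CPM in naive, 10.5, 9.93 and 9.94 at 37 °C, and 8.28, 10.6 and 9.76 at 39 °C. Oas3 stood at 38.6, 45.8 and 45.8 CPM in naive, 5.22, 5.45 and 4.50 at 37 °C, and 6.54, 5.40 and 6.97 at 39 °C. Both were several fold lower in every activated library than in any naive one. The log2 fold changes at 37 °C were -2.89 ± 0.10 (adjusted p = 5.17e-10) and -3.10 ± 0.12 (adjusted p = 1.2e-09). At 39 °C Oas2 was at -2.99 and Oas3 at -2.78 against naive. Oas1a fell by -2.37 ± 0.18 at 37 °C, Oasl2 by -1.68 ± 0.13 and Oasl1 by -1.41 ± 0.14. Oas1a shares 57.6% of its 50-base stretches with Oas1g and its value is uncertain for that reason.

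**Figure D2:**
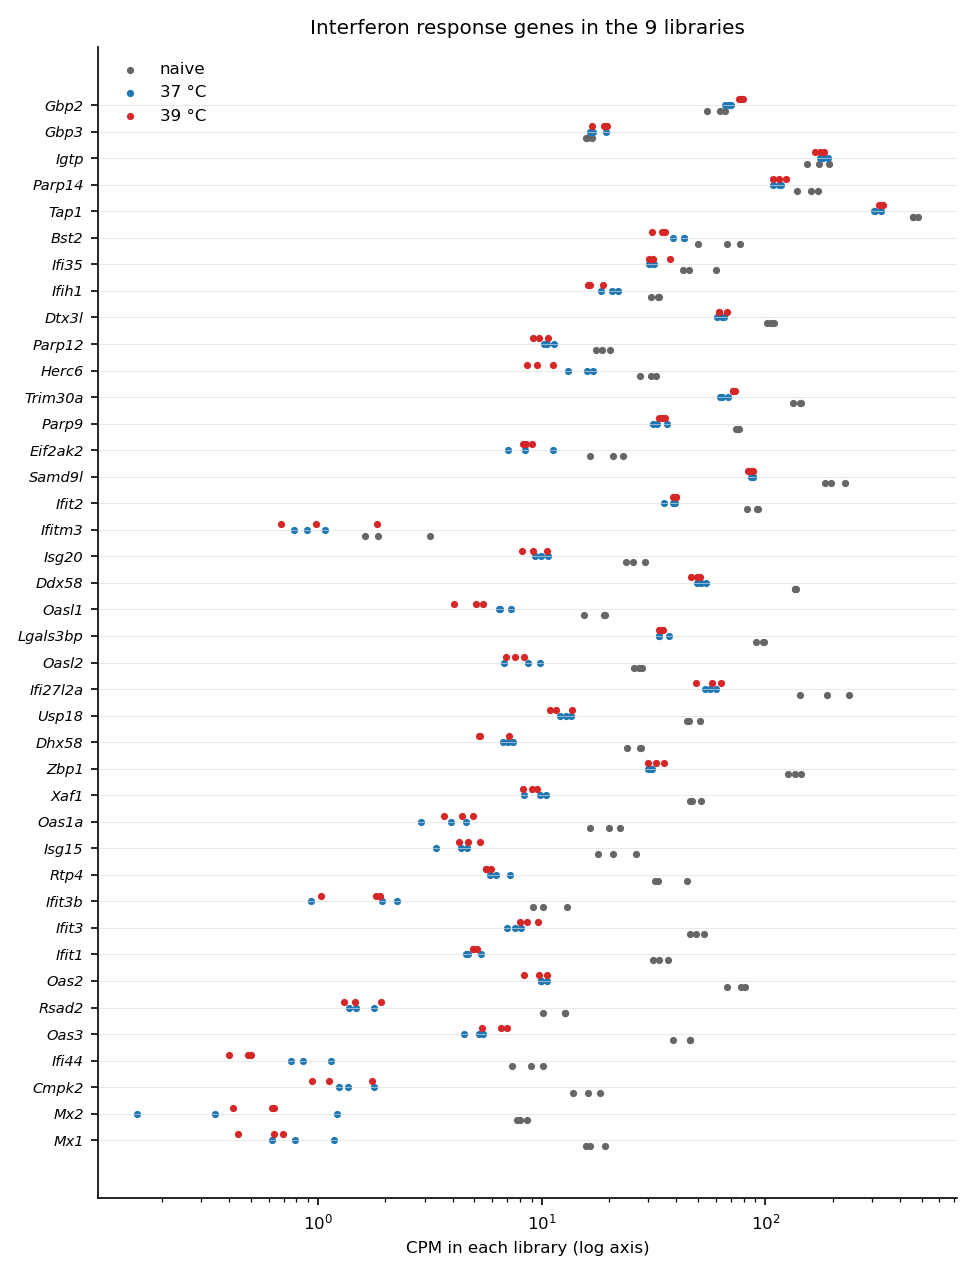
CPM on a log axis for the 40 members, with 1 point per library (grey naive, blue 37 °C, red 39 °C), ordered by the log2 fold change at 37 °C against naive. Oas2, for example, lies at 67.5 to 80.6 CPM in naive and at 8.28 to 10.6 CPM in the activated libraries, while the points of Igtp mix across all groups.

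ISG15 is a ubiquitin-like protein that HERC6 conjugates to targets in the mouse and USP18 removes, and USP18 also restrains signalling at IFNAR2. The 3 genes fell at 37 °C. Usp18 stood at 50.9, 44.4 and 45.4 CPM in naive, 13.6, 12.9 and 12.03 at 37 °C, and 10.9, 11.5 and 13.7 at 39 °C. Herc6 stood at 32.4, 30.7 and 27.5 CPM in naive, 15.9, 17.0 and 13.0 at 37 °C, and 8.60, 9.54 and 11.2 at 39 °C. Usp18 did not separate by temperature, whereas all Herc6 values at 39 °C were below all values at 37 °C. Against naive at 37 °C Usp18 changed by -1.87 ± 0.10 (adjusted p = 1.74e-08) and Herc6 by -0.98 ± 0.12 (adjusted p = 2.15e-05). Herc6 shares 12.5% of its 50-base stretches with other genes, mostly a predicted model that had 0 counts. Isg15 went from 17.8 to 26.5 CPM in naive to 3.38 to 4.64 at 37 °C (-2.40 ± 0.17) and was at -2.19 ± 0.17 against naive at 39 °C.

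Cytosolic RNA sensors and the kinase PKR fell in 4 of 4 cases. Ddx58, which encodes RIG-I, stood at 135, 136 and 137 CPM in naive, 51.6, 54.2 and 49.2 at 37 °C, and 46.5, 51.2 and 49.5 at 39 °C. Ifih1, which encodes MDA5, stood at 30.9, 33.2 and 33.5 CPM in naive, 18.4, 20.6 and 21.9 at 37 °C, and 18.8, 16.4 and 16.0 at 39 °C. Neither overlapped between naive and activated libraries. Ddx58 changed by -1.40 ± 0.066 (adjusted p = 4.65e-09) and Ifih1 by -0.68 ± 0.094 (adjusted p = 5.18e-05) at 37 °C. Dhx58, for the regulatory helicase LGP2, fell by -1.91 ± 0.12 and Eif2ak2, for PKR, by -1.17 ± 0.16. The 4 genes had a median of -1.28.

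The GTPases divided by family. Mx1 and Mx2, dynamin-like antiviral GTPases, were both called lower, although laboratory strains such as B6 are known to carry defective alleles. Mx1 (ENSMUSG00000000386, chromosome 16, 97447035 to 97462907, GRCm38), chosen for per-library values after they were seen, stood at 15.7, 19.1 and 16.4 CPM in naive, 0.786, 1.17 and 0.621 at 37 °C, and 0.436, 0.636 and 0.697 at 39 °C. The activated libraries kept 5.13% and 3.46% of the mean naive level. The log2 fold change was -4.28 ± 0.20 at 37 °C and -4.85 ± 0.21 at 39 °C. Mx2 stood at 7.77, 8.62 and 7.95 CPM in naive, 1.21, 0.345 and 0.155 at 37 °C, and 0.623, 0.636 and 0.418 at 39 °C. It was far lower in every activated library, but its 37 °C values rest on 17, 5 and 2 counts. The log2 fold change was -3.79 ± 0.36 at 37 °C and -3.84 ± 0.36 at 39 °C, and the value at 37 °C was -4.94 without library 1 and -3.37 without library 3 of that group. Both genes had few counts after activation, and they had passed the filter through the naive group, where they were high.

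GBP and IRG GTPases attack the vacuoles of intracellular pathogens, and the 3 members of these families were not called lower. Igtp (ENSMUSG00000078853, chromosome 11, 58199556 to 58207591, GRCm38), for IRGM3, stood at 193, 153 and 173 CPM in naive, 181, 176 and 191 at 37 °C, and 182, 175 and 167 at 39 °C. Gbp2 stood at 65.7, 54.7 and 62.6 CPM in naive, 69.9, 66.2 and 68.8 at 37 °C, and 79.4, 77.6 and 76.2 at 39 °C. Igtp overlapped between all groups, and Gbp2 was the 1 member with all libraries at 37 °C above all naive ones. At 37 °C the log2 fold change of Igtp was 0.08 ± 0.084 (adjusted p = 0.434) and that of Gbp2 0.16 ± 0.075 (adjusted p = 0.0781). At 39 °C Igtp was at 0.02 ± 0.084 (adjusted p = 0.884) and Gbp2 rose by 0.35 ± 0.074 (adjusted p = 0.00157). Gbp3 was at 0.13 ± 0.097 (adjusted p = 0.272) and 0.19 ± 0.097 (adjusted p = 0.103).

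These small differences depend on the settings. Without naive library 1, Gbp2 (0.22) and Igtp (0.17) were called higher at 37 °C, and Igtp was below 0 in 2 of 17 alternatives at 37 °C and 4 of 17 at 39 °C. Gbp3 was below 0 in 1 of 17 at 37 °C. Gbp2 stayed above 0 in all 17 at both temperatures. Igtp overlaps exons of Irgm2 on the same strand and shares 11.8% of its 50-base stretches with it. Irgm2, counted among the further interferon-stimulated genes, rose by 0.55 ± 0.061 at 37 °C, and how reads at this locus were divided between the genes is uncertain. All 3 of Gbp2, Gbp3 and Igtp hold the motif in their promoter windows. Over the members with a window, the median log2 fold change at 37 °C was -1.33 (range -3.10 to 0.16) for the 16 with the motif and -1.31 (range -3.45 to -0.57) for the 14 without it.

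Enzymes that act on nucleotides and RNA fell in all 4 cases (median -2.16). Samd9l, for an antiviral restriction factor, stood at 185, 228 and 197 CPM in naive, 86.5, 88.2 and 88.2 at 37 °C, and 83.3, 85.8 and 88.3 at 39 °C. Isg20, for an exonuclease, stood at 28.9, 23.7 and 25.5 CPM in naive, 9.29, 9.93 and 10.6 at 37 °C, and 10.6, 9.14 and 8.15 at 39 °C. Naive and activated libraries of both were apart and the temperatures overlapped. At 37 °C Samd9l changed by -1.22 ± 0.079 (adjusted p = 7.7e-08) and Isg20 by -1.39 ± 0.12 (adjusted p = 8.76e-07). Rsad2, for viperin, which makes a chain-terminating nucleotide, fell by -2.92 ± 0.18. Cmpk2, a nucleotide kinase gene that is its neighbour on chromosome 12, fell by -3.45 ± 0.21.

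The PARP family members and Dtx3l, an E3 ligase that pairs with PARP9, fell in 4 of 4 cases with a median of -0.78. Parp14, an ADP-ribosyltransferase gene, stood at 138, 171 and 161 CPM in naive, 115, 117 and 108 at 37 °C, and 108, 115 and 123 at 39 °C. Dtx3l stood at 106, 109 and 102 CPM in naive, 60.4, 65.5 and 63.7 at 37 °C, and 61.8, 62.2 and 67.6 at 39 °C. Both separated naive from activated libraries, Parp14 by a narrow gap. Their log2 fold changes at 37 °C were -0.46 ± 0.085 (adjusted p = 0.000508) and -0.74 ± 0.066 (adjusted p = 1.36e-06). Parp9 changed by -1.17 ± 0.071 and Parp12 by -0.82 ± 0.10. Exons of Parp9 and Dtx3l overlap on opposite strands, and without a stated strand setting their reads there cannot be told apart.

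Membrane and secreted proteins fell in 5 of 5 cases (median -1.46). Ifi27l2a, for a small interferon-induced membrane protein, stood at 235, 142 and 189 CPM in naive, 60.1, 53.4 and 56.7 at 37 °C, and 63.6, 57.5 and 48.7 at 39 °C. Lgals3bp, for a secreted galectin ligand, stood at 97.5, 91.1 and 98.3 CPM in naive, 37.1, 33.5 and 33.4 at 37 °C, and 34.9, 33.5 and 34.3 at 39 °C. The naive values of Ifi27l2a were spread widely but all lay above every activated library. At 37 °C Ifi27l2a changed by -1.73 ± 0.16 (adjusted p = 1.48e-06) and Lgals3bp by -1.46 ± 0.07 (adjusted p = 5.2e-09). Rtp4, for a chaperone of receptors, fell by -2.51 ± 0.14.

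Bst2, for tetherin, which holds virus particles at the cell surface, fell by -0.63 ± 0.13 at 37 °C (adjusted p = 0.00119) and by -0.94 ± 0.13 at 39 °C. Its naive values were 76.6, 49.8 and 67.4 CPM, and library 1 was the highest and library 2 the lowest. Ifi27l2a had the same order, and so had further members such as Isg15, Rtp4 and Ifi35. Others, such as Oas2, Samd9l and Parp14, had library 1 lowest and library 2 highest. The order of Bst2 was also that of the marker sums of CD4+ T cells (4787, 3863 and 4296 CPM), B cells (1367, 1089 and 1232 CPM), CD8 T cells, NK cells, myeloid cells and erythroid cells. It was not that of the plasmacytoid dendritic cell list, which holds Bst2 (186, 177 and 198 CPM), or of neutrophils (3.30, 1.75 and 1.35 CPM). What these orders share was not tested. Ifitm3, which blocks virus entry, was near its detection limit at 3.16, 1.61 and 1.86 CPM in naive and 0.776 to 1.07 CPM at 37 °C. It changed by -1.26 ± 0.38 at 37 °C (adjusted p = 0.0122) and -0.96 ± 0.36 at 39 °C (adjusted p = 0.0394). The call at 39 °C was lost in 8 of 17 alternatives, among them without naive library 1 (-0.63) or 3 (-1.07), without any one of the libraries at 37 °C (-0.95 each) and without library 1 (-0.68) or 3 (-0.85) at 39 °C.

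The remaining members fell too. Zbp1, for a sensor of Z-form nucleic acid that triggers necroptosis, stood at 127, 136 and 143 CPM in naive, 31.1, 30.8 and 29.97 at 37 °C, and 35.1, 29.7 and 32.3 at 39 °C. Trim30a, for a regulator of inflammatory signalling, stood at 144, 142 and 133 CPM in naive, 62.8, 64.0 and 68.0 at 37 °C, and 71.6, 71.4 and 73.3 at 39 °C. Zbp1 overlapped between temperatures, and Trim30a at 39 °C was above every library at 37 °C. At 37 °C the changes were -2.14 ± 0.079 for Zbp1 (adjusted p = 6.18e-10) and -1.11 ± 0.063 for Trim30a (adjusted p = 2.56e-08). Xaf1, a pro-apoptotic gene, fell by -2.34 ± 0.10, Ifi35 by -0.67 ± 0.12 and Ifi44 by -3.25 ± 0.21.

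Tap1, the peptide transporter subunit of MHC class I antigen presentation, had the highest CPM of all members and stood at 455, 459 and 481 in naive, 328, 308 and 305 at 37 °C, and 337, 327 and 323 at 39 °C. All activated libraries were below all naive ones. The change at 37 °C was -0.57 ± 0.064 (adjusted p = 9.6e-06). Tap1 overlaps Psmb9 on the opposite strand, and without a stated strand setting reads in the overlap cannot be told apart.

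Levels per length, as CPM per kilobase of merged exons (RPKM), put the members in another order. Ifi27l2a led the naive group at 407 ± 101 RPKM (SD, n = 3). Igtp (85.5 ± 10.0), Tap1 (84.9 ± 2.52) and Bst2 (71.6 ± 15.1) followed and did not differ beyond their spread. Zbp1 (38.4 ± 2.39), Samd9l (37.5 ± 4.08), Trim30a (34.0 ± 1.38) and Lgals3bp (33.6 ± 1.40) formed the next, with spreads that overlapped or nearly so. At the low end stood Rsad2 (2.72 ± 0.343), Mx2 (2.24 ± 0.125) and Ifi44 (1.44 ± 0.230). At 37 °C Ifi27l2a (123 ± 7.21), Igtp (90.3 ± 3.60), Tap1 (57.3 ± 2.22) and Bst2 (46.2 ± 2.83) led again, now apart from each other, and Gbp2 (27.1 ± 0.770) came next after rank 12 in naive.

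Activated cells at 39 °C were next set against those at 37 °C, which addresses the effect of a fever-range temperature. Few genes of any kind passed the test in this comparison. edgeR called 0 of 40 members higher and 0 lower, against 0.135% and 0.623% of all genes tested, which were 18 and 83 genes. With shares this low, 0 of 40 is near that of all genes and says little about the members. At an unadjusted p under 0.05 there were 3 members higher and 5 lower. These 8 of 40 are a larger share than the 1061 of all 13328 genes, a difference that was not tested. DESeq2 called 1 member lower, Herc6. The median over the 40 was -0.04 (range -0.97 to 0.32), beside 0.0041 over all genes. All libraries at 39 °C lay below all at 37 °C for 4 members (Herc6, Oasl1, Bst2 and Ifi44), against 10.3% of all genes, and above for 2 (Gbp2 and Trim30a), against 10.7%. The libraries of 34 members overlapped.

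Herc6 came nearest to a call, at -0.65 ± 0.13 (adjusted p = 0.0517 by edgeR), and was lower in all 3 libraries at 39 °C. It was called in 6 of 17 alternatives, with log2 fold changes from -0.76 to -0.56 and adjusted p from 0.000151 to 0.29 over all of them. Leaving out naive library 1 (adjusted p = 0.0148) or 2 (adjusted p = 0.0362) made the call. Ifi44 stood at 1.14, 0.758 and 0.854 CPM at 37 °C and at 0.498, 0.397 and 0.488 at 39 °C (-0.97 ± 0.33, adjusted p = 0.394). Oasl1 was at -0.48 ± 0.15 (adjusted p = 0.327) and Bst2 at -0.31 ± 0.13 (adjusted p = 0.596). On the other side were Oas3 at 0.32 ± 0.14 (adjusted p = 0.615), Gbp2 at 0.19 ± 0.074 (adjusted p = 0.532) and Trim30a at 0.15 ± 0.064 (adjusted p = 0.569).

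**Figure D3:**
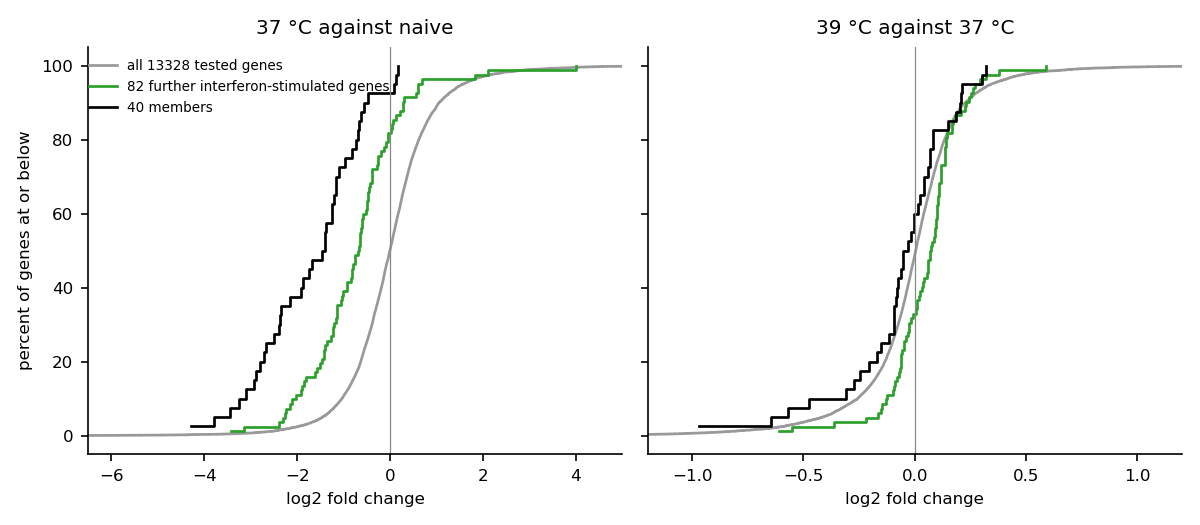
Cumulative percent of genes at or below each log2 fold change for the 40 members, 82 further interferon-stimulated genes and all 13328 tested genes, at 37 °C against naive (left) and at 39 °C against 37 °C (right). The member curve lies left of all genes in the left panel (medians -1.44 and -0.0025), with the further genes at a median of -0.67. The curves run close together in the right panel, with medians of -0.04 for members, 0.071 for the further genes and 0.0041 for all genes.

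The rest of the pathway was followed in lists. Of 92 further interferon-stimulated genes 82 were tested, and 63 were lower and 10 higher at 37 °C (median -0.67), against 31.8% and 30.9% of all genes. At 39 °C 59 were lower and 9 higher against naive (median -0.61), against 29.8% and 29.2% of all genes. The lower genes with the smallest p-values were Ifi206 (-2.02 ± 0.07), Ifi213 (-2.15 ± 0.085) and Ifi208 (-1.61 ± 0.064), all of the family of DNA-binding p200 proteins, the nuclear body gene Sp100 (-1.51 ± 0.06) and the galectin gene Lgals9 (-1.89 ± 0.097). The 10 that rose included Gbp5 (0.70 ± 0.10), Irgm2 (0.55 ± 0.061) and Tgtp1 (0.22 ± 0.08), which are GTPase genes, and the chemokine gene Cxcl10 (1.84 ± 0.26), the transmembrane protein genes Ifitm1 (4.01 ± 0.45) and Ifitm2 (2.12 ± 0.56), and Nampt, Ogfr, Tapbpl and Psme2 (0.28 to 0.59). Ifitm1 was at 0.55, 0.21 and 0 CPM in naive and 3.79, 3.79 and 4.35 at 37 °C, so its fold rests on very few naive counts. At 39 °C against 37 °C edgeR called 0 of the 82, with 8 higher and 0 lower at an unadjusted p under 0.05 and 0 by DESeq2. Over 17 alternatives 0 to 4 were called higher and 0 lower.

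Interferon transcripts themselves were almost absent. Of 18 type I interferon genes 13 had no count in any library, Ifnb1 among them, and the other 5 together had 9 counts over the naive libraries, 0 at 37 °C and 4 at 39 °C. None of 21 listed interferon genes, Ifng included, passed the filter. Ifng, the gene of interferon gamma, had 9, 16 and 19 counts over the naive, 37 °C and 39 °C libraries. RNA levels do not measure the interferon that the cells or the medium held.

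Of 5 tested receptor chains 4 were lower at 37 °C, against 31.8% of all genes. Ifnar2 changed by -0.61 ± 0.08 (adjusted p = 3.5e-05) and Ifngr2 by -0.66 ± 0.069. Ifnar1 stood at 163, 196 and 181 CPM in naive and 159, 164 and 157 at 37 °C, with a change of -0.17 ± 0.08 that was not called (adjusted p = 0.0844). Stat2 stood at 77.4, 96.6 and 88.9 CPM in naive, 58.7, 58.2 and 51.7 at 37 °C, and 57.2, 54.3 and 55.1 at 39 °C, and all activated libraries were below all naive ones. It changed by -0.64 ± 0.087 (adjusted p = 4.53e-05) at 37 °C, beside Irf9 at -0.58 ± 0.065 (adjusted p = 8.4e-06). The receptor kinase gene Jak1 was at -0.20 ± 0.077 (adjusted p = 0.0355). Jak2, the kinase of the interferon gamma receptor, rose by 1.69 ± 0.07, while Tyk2 was at 0.18 ± 0.12 (adjusted p = 0.189).

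Among 6 interferon regulatory factors 2 were lower and 2 higher at 37 °C, a share in each direction near that of all genes (31.8% lower and 30.9% higher). Irf7, the factor that amplifies interferon alpha production and is itself interferon-stimulated, stood at 161, 138 and 155 CPM in naive, 28.7, 27.1 and 31.1 at 37 °C, and 30.3, 27.6 and 25.2 at 39 °C. The activated libraries lay far below every naive one. Irf7 fell by -2.39 ± 0.091 (adjusted p = 8.45e-10), and Irf8, a factor of lymphoid and myeloid cells, rose by 2.44 ± 0.064. Irf1 (-0.21 ± 0.068) was lower and Irf3 (0.20 ± 0.072) higher by small amounts. The counts were 1 lower and 1 higher without library 1 or without library 2 at 37 °C, and 2 lower and 1 higher without library 3 at 37 °C or naive library 2.

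Of 11 tested sensors and adaptors 5 were lower and 1 higher at 37 °C, against 31.8% lower and 30.9% higher among all genes. Over 17 alternatives 4 to 7 were lower and 1 to 2 higher, with 4 and 2 without naive library 2. With so few genes no difference from the shares of all genes is read from these counts. Tmem173, for the DNA-sensing adaptor STING, fell by -0.88 ± 0.084, and Unc93b1, for a chaperone of endosomal Toll-like receptors, by -1.16 ± 0.11. Cgas, for the enzyme that makes the ligand of STING, rose by 1.41 ± 0.097. Mavs, for the adaptor of the RNA sensors, was at -0.14 ± 0.099 (adjusted p = 0.244).

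Among 12 tested negative regulators, a list that holds the member Usp18, 7 were lower and 3 higher, against 31.8% and 30.9% of all genes. Socs3, a feedback inhibitor of cytokine receptors, stood at 181, 202 and 217 CPM in naive and 37.5, 36.4 and 37.9 at 37 °C (-2.42 ± 0.077, adjusted p = 2.03e-10). Socs1, its relative that acts on the interferon receptors, rose by 0.77 ± 0.12 and the phosphatase gene Ptpn6 by 1.02 ± 0.081. At 39 °C against 37 °C the main edgeR fit and DESeq2 called 0 genes in any of these pathway lists. Over 17 alternatives 0 to 1 sensor and 0 to 4 of the further interferon-stimulated genes were called higher. At an unadjusted p under 0.05 there were 2 sensors higher, 1 regulatory factor lower and 0 receptors or negative regulators.

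**Figure D4:**
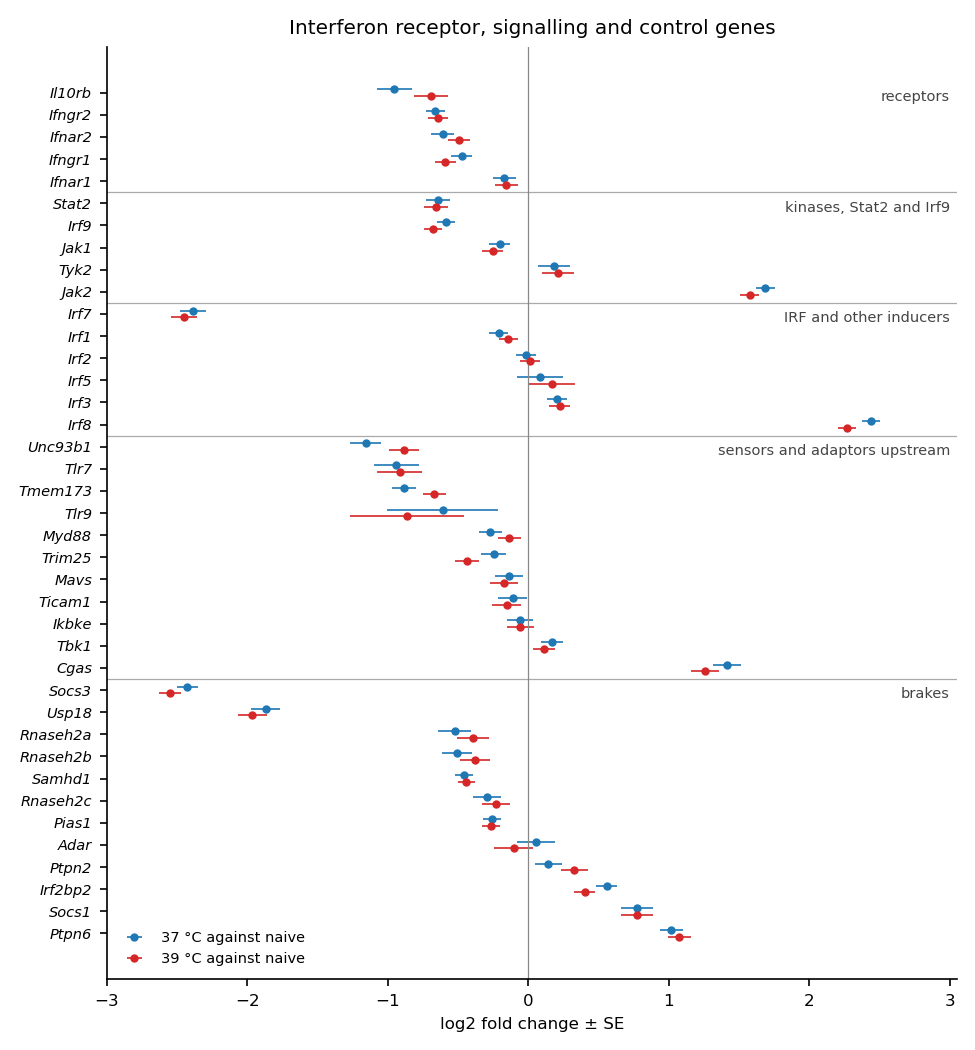
Log2 fold change against naive at 37 °C (blue) and at 39 °C (red), with bars for the standard error (n = 3 libraries per group), of tested pathway genes named or counted in the text, from receptors to negative regulators (brakes). At 37 °C Irf7 (-2.39) and Socs3 (-2.42) lie at the low end, and Irf8 (2.44), Jak2 (1.69) and Cgas (1.41) at the high end.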

How the data were processed

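The deposited tables, 1 per library, hold raw counts of reads per gene (55573 identifiers, 0 rows naming no gene). GRCm38 and the tools HISAT2, HTSeq, FastQC and DESeq2 are listed, without versions or roles, in the submitters' processing notes, and the annotation release and strand setting are not given in the sources used here. Per the labels, TRIzol and a TruSeq kit were used. GENCODE M21 gave symbols and coordinates for 55480 identifiers.

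Counts were filtered by filterByExpr (minimum count 10, minimum total 15), TMM-normalised and fitted with edgeR 4.0.16 in R 4.3.3 by 2-sided quasi-likelihood F tests over all 9 libraries, adjusted by Benjamini-Hochberg over 13328 genes with 0.05 as threshold. Standard errors are the log2 fold change divided by the square root of F. The members and lists were chosen with earlier results of these data known. Per-library values are given for the 2 members of each role group with the highest mean CPM (1 for antigen presentation), and the other members have their fold change. Any further gene with per-library values was chosen after its values were seen.

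The fit was tested on simulated data, evaluated for 37 °C against naive only. It recovered 48 of 49 genes changed 2-fold, 40 of 49 changed 1.5-fold and 3 of 47 changed 1.25-fold. Changes as small as 1.25-fold were thus mostly missed in the simulation. In the real data far more genes were called, and some smaller changes, such as those of Jak1 and Irf1, passed at 37 °C against naive. The simulation therefore does not give the smallest change that the real comparisons could detect. No label says that a replicate number marks a shared animal or day, so the main fit did not pair the libraries. Alternatives were other scalings and filters, an adjusted p under 0.01, a minimum of 2-fold, DESeq2 1.42.0, a replicate block, 6 libraries alone and leaving out each library. One gene of the signalling list is not reported here.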

Additional observations from a re-analysis of the deposited data

How the results depend on the processing

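No member reversed a called direction. The median at 37 °C against naive was -1.57 with upper-quartile scaling and -1.50 to -1.42 when 1 library was left out, and at 39 °C against naive -1.81 and -1.71 to -1.56. At 39 °C against 37 °C it was -0.041 to -0.020 when 1 library was left out. The number of members higher at 37 °C was 0 to 2 when 1 library was left out, 2 only without naive library 1. With a 2-fold minimum, 0 members were higher at 39 °C against naive. At 39 °C against 37 °C, members lower numbered 1 with RLE scaling, 1 with any count as filter, 1 with DESeq2, 2 with the 6 libraries of the contrast alone (Herc6 and Bst2), and 0 to 1 when 1 library was left out, 1 without naive library 1 or 2. With the longer motif the promoter shares were 33.3% for members and 0.303% for all genes. Same-numbered libraries correlated at -0.24 to 0.43 in their deviations, over 0.1 in 2 of 9 pairs. With the replicate block, 37 members were lower at 37 °C and 37 lower and 1 higher at 39 °C against naive, and 0 differed between temperatures, the counts without it. Calls over all genes at 39 °C against 37 °C (18 higher, 83 lower) went from 7 and 30 without library 2 at 39 °C to 136 and 265 with 6 libraries alone, with 89 and 202 without naive library 1. Depth limits Mx1, Mx2, Ifitm3 and Ifi44, which had few counts after activation.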
